A study of Gallus gallus with 8 samples.

Results

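Oc1 (Onecut1) is a transcription factor with a cut domain and a homeodomain. The 2 Oc1 libraries of this series of 8 were examined, chosen by their antibody label. Both come from CUT&RUN, in which an antibody holds a nuclease at its target on chromatin and the DNA cut free around it is sequenced. The Oc1 antibody was used on dissociated retina of wild-type chick embryos, stage E5, and the nuclease was stopped after 30 min in one library and after 25 min in the other. Libraries with an Otx2 antibody at 30 and 25 min, from the same tissue and stage, serve here as a readout that the classes of Oc1 peaks did not use. The 4 libraries with H3K27me3 antibody or IgG were not analysed here. Each antibody and time has 1 library, so no p-value can be given, and every interval below covers counting error over peaks or reads and not the spread between preparations. The labels do not say whether the times share a dissociation or how many embryos were pooled.

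As background, Onecut factors bind DNA through both of their domains and are known from mouse and chick as regulators of early retinal cell fates, among them horizontal cells, ganglion cells and cones. Otx2 is a homeodomain factor of photoreceptor and bipolar cells. In mouse and chick, Otx2 and Onecut1 act together on an early cone enhancer of the thyroid hormone receptor gene Thrb. The nuclease releases more DNA the longer it runs, so digestion time is a technical variable of the assay. The retina at this stage is a mixture of cell types. In such a mixture, a site bound in few cells cannot be told apart from a site bound weakly in many.

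The lists give positions in the chicken build galGal5, per the submitters' processing notes. With chromosome M left out, the list at 30 min held 10663 peaks and the list at 25 min held 9776. A peak's fold is the authors' enrichment at its summit, the base with the highest pile-up of reads, over a local background. The reads at each summit were recovered from fold and p. Their median was 7 in either library, and the weakest peaks of either list rested on 3 reads. The genome-wide background corresponded to 0.985 reads per kb at 30 min and 0.967 at 25 min. A local background over 2 times the genome-wide one lay under 16.2% of peaks at 30 min and under 34.4% at 25 min. These shares depend on the cutoff, since a recurring ratio was 1.98 at 30 min, just under it, and 2.75 at 25 min, over it. No genome or gene annotation of this build was at hand, so no sequence is shown and regions are given without gene names.

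Most strong Oc1 sites were found at both digestion times, and most sites with at most 5 summit reads were found at 1. In all, 6094 of the 30 min peaks (57.2%, Wilson 95% interval 56.2 to 58.1%) shared at least 1 base with a 25 min peak. In the other direction, 6138 of the 25 min peaks (62.8%, 61.8 to 63.7%) had a 30 min peak over them. The strongest 100 peaks of each list, ranked by −log10 q, all had a partner. Among the strongest 1000, 98.2% at 30 min and 98.1% at 25 min had one. With 3 or 4 summit reads the share was 21.8% (19.9 to 23.8%) at 30 min and 30.1% (27.6 to 32.7%) at 25 min. With 8 reads it was 69.5% (66.4 to 72.4%) at 30 min and 72.1% (69.1 to 74.95%) at 25 min. With 11 or 12 reads it was 92.1% (90.03 to 93.8%) at 30 min and 91.6% (89.4 to 93.4%) at 25 min. The share climbed with read number up to 20 reads at both times, and the curve at 25 min lay above that at 30 min up to 10 reads. The 25 min peaks were compared with the longer list, of 10663 peaks, and the 30 min peaks with 9776. With both lists cut to their 5000 strongest peaks, the shares were 57.9% at 30 min and 58.2% at 25 min. Lists of equal length give nearly equal shares whenever most shared peaks have a single partner. These values therefore do not test the part of list length. The climb did not go on above 20 reads at either time. At 30 min the share was 97.8% (96.0 to 98.7%) with 16 to 20 reads and 97.4% (95.1 to 98.6%) with over 20. At 25 min it was 99.5% (98.3 to 99.9%) with 16 to 20 reads. With over 20 reads at 25 min it was 94.8% (91.6 to 96.8%), or 274 of 289 peaks. The 15 without a partner lay over a raised background, since no peak of 25 min only had a fold above 15.2.

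**Figure D1:**
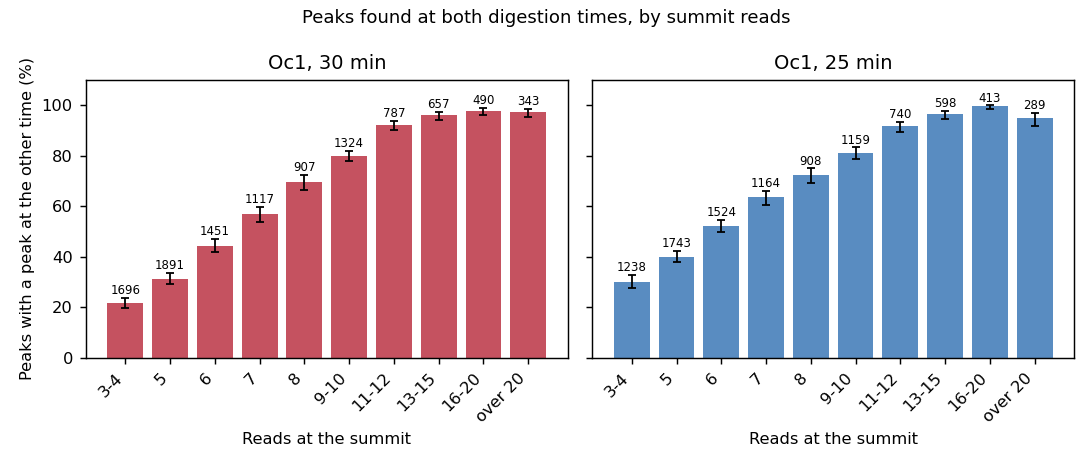
Share of Oc1 peaks with an overlapping peak at the other time (vertical axis, percent) by the number of reads at the summit (horizontal axis), at 30 min on the left and 25 min on the right. Bars are shares, error bars Wilson 95% intervals and the printed counts numbers of peaks. The share is 21.8% in the lowest class and 97.4% in the highest at 30 min; at 25 min it is 30.1% in the lowest, 99.5% at 16 to 20 reads and 94.8% in the highest.

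Peaks with high fold likewise had a partner most often. Of peaks with a fold of 10 or more, 1336 of 1382 (96.7%, 95.6 to 97.5%) at 30 min and 1186 of 1220 (97.2%, 96.1 to 98.0%) at 25 min had a partner. Of peaks with a fold of 5 to 6, 44.4% (42.7 to 46.1%) at 30 min and 51.2% (49.4 to 53.0%) at 25 min had one. At 25 min the share was not lowest in the lowest class: it was 44.9% (41.4 to 48.5%) below a fold of 4 and 41.5% (39.2 to 43.7%) between 4 and 5. Peaks over a raised background were more often found at both times. Where the background was 2 to 5 times the genome-wide one, a partner was found for 83.4% (81.4 to 85.2%) of the 30 min peaks and 72.7% (71.0 to 74.4%) of the 25 min peaks. In this class a recurring ratio was 4.96 at 30 min and 2.75 at 25 min, so the 2 shares are not on equal terms. Over the genome-wide background itself the shares were 49.2% (47.9 to 50.6%) at 30 min and 53.7% (51.9 to 55.5%) at 25 min. At a given p, a raised background calls for more summit reads, and the share climbed with reads. The background classes were not compared at equal reads. Whether the background has a part in the overlap was not tested.

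The peaks of 1 time only were weaker and narrower. The median fold at 30 min was 6.68 for peaks of both times and 5.01 for the 4569 peaks of that time only. At 25 min it was 6.67 for peaks of both times and 5.05 for the 3638 peaks of that time only. The middle 50% of folds ran from 5.06 to 9.19 for both times and from 4.18 to 5.85 for 1 time only at 30 min, so the classes overlap widely. Median summit reads at 30 min were 9 for peaks of both times and 5 for that time only, and at 25 min 8 for both times and 5 for that time only. Peaks with at most 6 reads made up 26.3% of peaks of both times and 75.2% of peaks of 30 min only. They made up 30.4% of peaks of both times and 72.5% of peaks of 25 min only. The median width was 366.5 bases for both times and 241 bases for 1 time only at 30 min, and 340 and 229 bases at 25 min. Many single-time peaks had the smallest width of their list, 200 bases at 30 min and 194 at 25 min. That width was found in 7.86% of peaks of both times and 32.7% of peaks of 30 min only, and in 9.71% of peaks of both times and 33.6% of peaks of 25 min only.

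Strong single-time peaks were few. A fold of 10 or more was reached by 46 peaks of 30 min only and by 34 peaks of 25 min only. The strongest at 30 min only was chrZ:60471652-60472322, with a fold of 15.9 and 18 reads, and the nearest summit at 25 min was 1809 bases away. A peak on chr5:40400997-40401340 had a fold of 14.2 and 16 reads, and the nearest summit at 25 min was 126540 bases away. Peaks with the same fold and reads lay on chr22:528344-528959 and on chrZ:50144570-50145007. The last of the 5, on chr13:6321411-6322137, had a fold of 14.1 and 17 reads, lay 916 bases from a summit at 25 min and was the only one of them with an Otx2 peak. Only the chromosome 13 peak lay over a background above the genome-wide one, by a ratio of 1.39.

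At 25 min only, the strongest peak lay on chr1:48163881-48164382, with a fold of 15.2 and 17 reads, 1075 bases from the nearest summit at 30 min. On chromosome 2 a peak from 32334260 to 32334884 had a fold of 12.6 and 14 reads, lay 651 bases from a summit at 30 min and overlapped an Otx2 peak at 30 min. The others, with folds of 11.7 to 11.8 and 13 reads, were on chr20:11702658-11702982, chr26:1696690-1697182 and chr1:97264162-97264498. These lay 15914 to 21941 bases from the nearest summit at 30 min. Thus 2 of the 5 at 25 min only, and 2 of the 5 at 30 min only, had a summit of the other time within 2000 bases without overlapping its peak.

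Overlapping peaks were matched 1 to 1, nearest summits first, which gave 6049 pairs. Splits and mergers were rare. Of the shared peaks at 30 min, 95 covered 2 or more peaks at 25 min, and of those at 25 min, 56 covered 2 or more peaks at 30 min. Matching left 45 shared peaks at 30 min and 89 at 25 min outside the pairs.

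Summits of a pair mostly lay within 100 bases of each other, with neither direction favoured. Only overlapping peaks were paired, nearest summits first, and this itself limits the displacement. Coordinate direction bears no set relation to a site, so the balance of directions is a description only. The summit at 30 min minus that at 25 min had a median of 0 bases (95% interval of the median -2 to 1). It lay at the higher coordinate in 2972 pairs and at the lower in 3023, and 54 pairs shared the exact base. The absolute displacement had a median of 52 bases (50 to 54) and a 90th percentile of 154 bases. It was at most 20 bases in 24.4% of pairs, at most 100 bases in 75.6% and at most 200 bases in 95.4%. Midpoints of the peaks moved about as far as summits, by a median of 49 bases (48 to 51). The summit at 30 min fell outside the peak at 25 min in 514 pairs (8.50%), and the summit at 25 min fell outside the peak at 30 min in 441 pairs (7.29%).

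Stronger pairs held their summits more closely. In the 669 pairs with a fold of 10 or more at both times the median absolute displacement was 36 bases (31 to 41), and in the other 5380 pairs it was 54 bases (52 to 56). Over classes of the smaller fold of a pair, the median was 60 bases below 4, 61 from 4 to 5, 56 from 5 to 6, 47 from 6 to 8, 43 from 8 to 10 and 36 at 10 or more. The intervals of neighbouring classes overlapped or touched. A displacement of at most 50 bases was found in 61.3% (57.5 to 64.9%) of the strong pairs and 47.6% (46.3 to 48.9%) of the others. With width the relation was not steady. The median displacement was 57 bases (54 to 60) where the narrower peak of the pair had under 250 bases, 45 bases (41 to 47) at 300 to 400 bases and 65 bases (56 to 72) at 500 bases or more. Only 12 of the 281 pairs over 200 bases apart involved a peak with more than 1 partner.

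**Figure D2:**
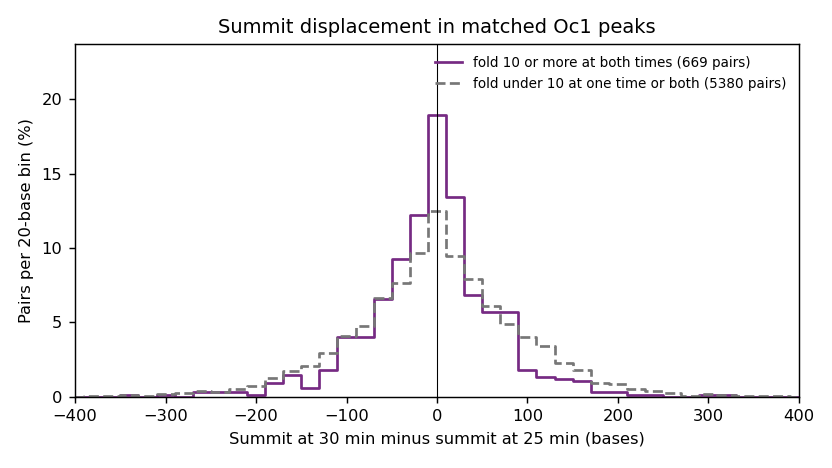
Summit at 30 min minus summit at 25 min (horizontal axis, bases) in matched Oc1 peaks, as the percentage of pairs per 20-base bin (vertical axis). The solid line shows the 669 pairs with a fold of 10 or more at both times and the dashed line the other 5380 pairs; 3 and 29 pairs lie outside the bins. Both are centred near 0, and the strong pairs are the more tightly placed, with medians of absolute displacement of 36 and 54 bases.

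The largest displacements among strong pairs were in wide peaks. On chromosome 9 the peak at 30 min ran from 16899573 to 16900943 with its summit at 16900567, and the peak at 25 min ran from 16899886 to 16901223 with its summit at 16900064, 503 bases away. The folds there were 17.9 at 30 min and 18.5 at 25 min, so the site was about equally strong at both times. On chromosome 11 the summits of a peak at 6054367 to 6055410 (30 min coordinates) lay 485 bases apart, with folds of 11.1 at 30 min and 22.1 at 25 min. Reads there numbered 21 at 30 min and 26 at 25 min, over backgrounds of 4.96 and 1.17 times the genome-wide one. Another, on chr11:8872197-8873814, had a displacement of 468 bases and folds of 30.9 at 30 min and 15.2 at 25 min. The remaining 2 lay on chr3:3783370-3784668, with 345 bases between summits, and on chr2:68317127-68317941, with 319 bases. All 5 were 815 to 1618 bases wide at 30 min, against a median of 523 bases in strong pairs at that time. Overlapping peaks must together span the distance between their summits, so a choice by displacement favours wide peaks.

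Peaks at 30 min were slightly wider than their partners. The median width in pairs was 367 bases at 30 min and 341 bases at 25 min, and the median difference within a pair was 25 bases (20 to 29). The peak at 30 min was the wider in 3600 pairs (59.5%, 58.3 to 60.7%) and the narrower in 2428. The extra reach was shared by both sides, with medians of 10 bases on the left and 11 bases on the right (8 to 13 for either). The peak at 30 min held the whole peak at 25 min in 1891 pairs (31.3%), the reverse held in 966 (15.97%), and in 3192 (52.8%) the peaks were staggered. The smallest width of the list was itself 6 bases greater at 30 min. With widths put on the scale of that smallest width, the median difference was 14 bases (9.26 to 18). The part of the read extension in the rest was not tested.

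Fold was on balance equal at both times and scattered widely from pair to pair. Over all pairs the median fold was 6.68 at 30 min and 6.68 at 25 min, and the median log2 ratio of 30 over 25 min was 0.02 (0.01 to 0.04) with an SD of 0.55. Of the 6049 pairs, 941 (15.6%) had a fold at least 1.5 times higher at 30 min and 770 (12.7%) a fold at least 1.5 times lower. In the strong pairs these shares were 8.52% (6.63 to 10.9%) and 5.53% (4.04 to 7.53%). Strong pairs are chosen by fold at both times, which passes over pairs with unlike folds and narrows the range of fold. Their shares and rho of fold are thus not on equal terms with those of all pairs. Across pairs, which share a library and an antibody at each time and are not independent replicates, the fold had a Spearman's rho of 0.488 and the width one of 0.486. In the strong pairs rho was 0.395 for fold and 0.624 for width.

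The scatter of the reads was below their counting error. The log2 ratio of summit reads had an SD of 0.50 over all pairs, and the counting SD computed from the reads of each pair had a median of 0.71. In the strong pairs, with medians of 18 reads at 30 min and 17 at 25 min, the SD was 0.33 and the median counting SD 0.49. Pairs enter only when a peak was listed at both times, and strong pairs are also chosen by fold. The part of either selection in the spread was not tested.

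Reads and background both enter the fold ratio. A fold is (reads + 1)/(background + 1), so its log2 ratio divides into a term for reads and a term for background. In the 941 pairs with higher fold at 30 min, the medians were 0.58 for reads and 0.30 for background. The background term was the larger in 236 of them (25.1%, 22.4 to 27.9%), and the reads went the other way in 53 (5.63%). In the 770 pairs with lower fold at 30 min they were -0.42 for either term, and the background term was the larger in 408 of them (53.0%, 49.5 to 56.5%). In 106 of those 770 pairs (13.8%) the reads went the other way. The 1727 pairs with a background over 2 times the genome-wide one at 25 min only had a median log2 fold ratio of 0.35 and a median log2 read ratio of 0.00. The 678 pairs with such a background at 30 min only had a median log2 fold ratio of -0.53 and a median log2 read ratio of 0.19. In the 2882 pairs with such a background at neither time both medians lay near 0, at -0.01 for fold and 0.00 for reads. Background is part of the fold, so grouping by it favours a lower fold at the time with the raised background. The fold medians of these groups are thus a description only. The sizes of these groups depend on the cutoff of 2 times, since a recurring ratio of 1.98 at 30 min lies just under it.

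**Figure D3:**
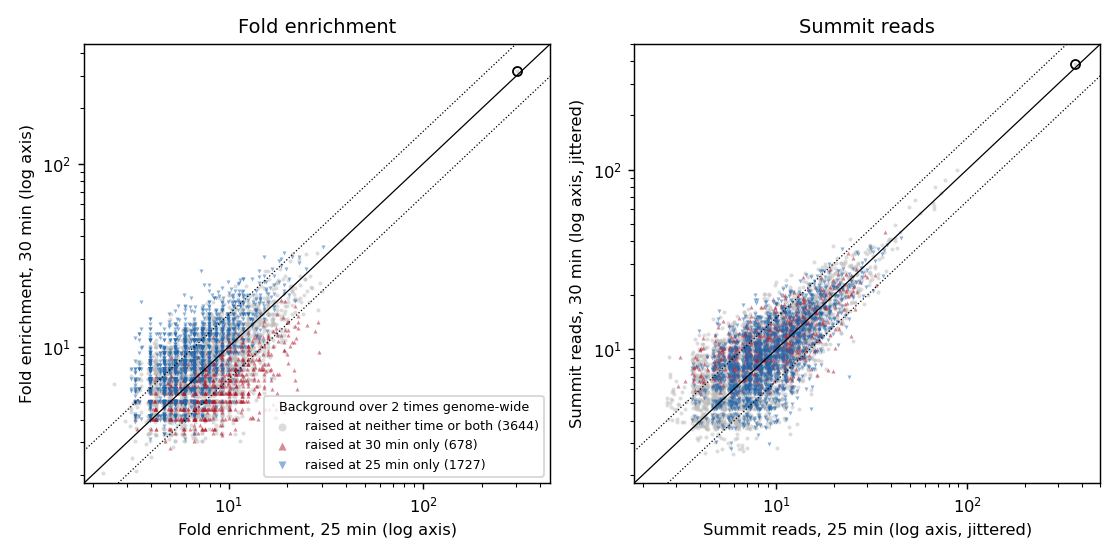
Fold enrichment (left) and summit reads (right) of 6049 matched Oc1 peaks, at 30 min on the vertical and 25 min on the horizontal axis, both log axes; the solid line marks equality and the dotted lines ratios of 1.5 either way. Colours give pairs with a background over 2 times the genome-wide one at 30 min only (678) or at 25 min only (1727), which part to opposite sides of the line for fold (medians of log2 ratio -0.53 and 0.35) and far less for reads (0.19 and 0.00). Background is part of the fold, so the grouping itself favours this parting. The circled point is the strongest pair, on chromosome 2, and reads are jittered.

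The pairs with the largest fold ratios were chosen by a value that holds both the reads and the background. Their reads, read intervals and backgrounds are therefore given as a description only. On chr4:85125070-85125854 the fold reached 17.5 at 30 min, from 20 reads over 1.00 times the genome-wide background, and 3.54 at 25 min, from 8 reads over 8.24 times that background. The read ratio there was 2.50 (exact binomial 95% interval 1.055 to 6.56). On chrZ:79550231-79551173 the fold was 25.9 at 30 min and 7.16 at 25 min, but the reads numbered 35 and 32, over backgrounds of 1.98 and 19.2 times. In the other direction, a peak on chr10:19720312-19720920 had folds of 4.42 at 30 min and 19.2 at 25 min with 25 and 22 reads, over backgrounds of 24.8 and 1.07 times. A peak on chr13:1167805-1168122 had folds of 4.14 at 30 min and 17.5 at 25 min with 8 and 20 reads, a read ratio of 0.400 (0.152 to 0.948). Among the 5 largest ratios in each direction, the read interval left out 1 in 2 pairs with higher fold and in 2 pairs with lower fold at 30 min. The choice by fold ratio favours such intervals, so they support no difference in reads. The background of the 5 pairs with higher fold was 1.00 to 1.98 times the genome-wide one at 30 min and 2.75 to 19.2 times at 25 min. That of the 5 with lower fold was 5.95 to 24.8 times at 30 min and 1.07 to 2.75 times at 25 min.

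The next 5 pairs were chosen for the highest −log10 q at the weaker of their times, so that like strength at both times is part of the choice and supports nothing. The first lay on chr2:17447365-17448517 at 30 min, with folds of 318 at 30 min and 305 at 25 min and a read ratio of 1.049 (0.907 to 1.21). It stood apart from all other Oc1 peaks, since the second highest folds were 38.4 at 30 min and 37.9 at 25 min. Its summits lay 115 bases apart although 386 reads at 30 min and 368 at 25 min placed them. The second pair, on chr17:8218041-8219186, had folds of 38.4 and 37.9 with 45 and 44 reads at 30 and 25 min, over the genome-wide background at both, and its summits lay 25 bases apart. Next came chr1:123215433-123216243, with folds of 35.1 at 30 min and 30.4 at 25 min and summits 24 bases apart. Another lay on chr1:62821011-62822422, with folds of 32.6 and 28.5 at 30 and 25 min and summits 29 bases apart. The last, on chr19:1364165-1364913, had folds of 26.6 and 25.1 at 30 and 25 min and summits 23 bases apart. Each of the 5 overlapped an Otx2 peak at both times. Among all Oc1 peaks of both times, 37.4% at 30 min and 36.8% at 25 min did, and Otx2 overlap was more frequent in strong peaks. A pair strong at 30 min and weaker at 25 min is passed over by this choice, as was chr11:8872197-8873814 above, with 36 reads at 30 min and 22 at 25 min.

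Oc1 peaks were unevenly spaced, and peaks of both times lay closer to other Oc1 peaks. The median distance from a summit to the next in the same list was 39.9 kb at 30 min and 42.2 kb at 25 min, in lists of different length. It depends on the threshold, and was 69.7 kb at 30 min and 75.7 kb at 25 min with −log10 q of at least 5. The next summit lay within 1 kb in 4.27% of cases at 30 min and 4.32% at 25 min, and within 10 kb in 25.2% and 24.7%. The nearest summit in the list at 30 min was a median of 12313 bases away (11585 to 13059) for peaks of both times and 20032 bases away (18901 to 21368) for peaks of that time only. In the list at 25 min it was 12938 bases away (12063 to 13746) for peaks of both times and 21063 bases away (19718 to 22776) for peaks of that time only. A neighbour within 10 kb was found for 46.2% (44.99 to 47.5%) of peaks of both times and 36.0% (34.6 to 37.4%) of peaks of 30 min only. At 25 min the shares were 44.9% (43.6 to 46.1%) for both times and 34.7% (33.1 to 36.2%) for that time only. Within each of 6 classes of fold the share was again higher for peaks of both times, at 30 and at 25 min, but the intervals lay apart in 4 classes at 30 min and in 2 at 25 min. Peaks of both times are mostly the same sites in either list, so the results at 30 and 25 min are not independent.

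Few single-time peaks had a listed summit of the other time close by. Of peaks of 30 min only, 6.54% (5.86 to 7.30%) had a summit at 25 min within 1 kb, and the median distance was 21475 bases. Of peaks of 25 min only, 7.06% (6.28 to 7.94%) had a summit at 30 min within 1 kb, and the median distance was 17727.5 bases. Within 1 kb, 7.36% of peaks of 30 min only and 6.57% of peaks of 25 min only had another summit of their own list. A peak list holds no signal below its threshold, so whether reads lay at these sites at the other time was not tested.

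Joined where summits at 30 min lay under 10 kb apart, the 6049 pairs formed 4890 runs, of which 4015 held 1 pair. The 875 longer runs held 2034 pairs (33.6%). The largest run lay on chr21:1398045-1419882 and held 10 pairs, with gaps between neighbouring summits of 1033 to 3755 bases at 30 min and 1118 to 3772 bases at 25 min. Displacement there was 4 to 140 bases. The order of sites is fixed by the matching of overlapping peaks and is no result. Summit reads of its pairs numbered 5 to 45 at 30 min, against 9 to 37 at 25 min. The folds in this run reached 12.6 at 30 min and 29.2 at 25 min. The peak with the highest fold at 25 min, from 1413123 to 1414518 in 30 min coordinates, had 45 reads at 30 min and 37 at 25 min, over backgrounds of 19.8 and 1.60 times the genome-wide one. The run also held 3 peaks of 30 min only, and 8 of its 10 pairs overlapped an Otx2 peak. Among all Oc1 peaks of both times, 59.8% at 30 min and 59.6% at 25 min overlapped one.

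A further 5 runs held 6 pairs, and the 2 with the highest fold at 30 min are given. One lay on chr3:23452510-23471394, with folds of 4.06 to 28.5 at 30 min and 4.62 to 22.9 at 25 min, and 3 of its pairs overlapped an Otx2 peak. The other lay on chr24:6024021-6038492, with folds of 4.94 to 25.9 at 30 min and 5.39 to 14.3 at 25 min. Its summits moved by 7 to 53 bases, and 4 of its pairs overlapped an Otx2 peak. With so few pairs per run, no excess over the share of all peaks of both times is claimed.

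The spread over chromosomes repeated between the times. On the 27 chromosomes with at least 50 peaks in each list, peaks per Mb of the span between the first and last summit were fewest on chromosome Z, with 6.76 at 30 min and 6.38 at 25 min. They were most frequent on chromosome 24, with 28.4 at 30 min and 24.2 at 25 min. Chromosome 1, with the longest span, had 8.10 peaks per Mb at 30 min and 7.33 at 25 min. Over the 27 chromosomes the density at 30 min and at 25 min had a Spearman's rho of 0.972, and density and span one of -0.893 at 30 min and -0.890 at 25 min. These describe chromosomes of 1 library per time, and short chromosomes were the densest. Span is the divisor of density, which itself favours a negative rho between them. The longer list at 30 min was not the work of a few chromosomes, since 26 of 27 had more peaks at 30 min, by ratios up to 1.24. The exception was chromosome 19, with 179 peaks at 30 min and 180 at 25 min.

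The share of peaks found at both times differed little between the 27 chromosomes with at least 50 peaks in each list. At 30 min it ran from 52.3% (44.4 to 59.97%) on chromosome 18 to 62.3% (54.5 to 69.6%) on chromosome 21. At 25 min it ran from 59.5% (48.1 to 69.9%) on chromosome 27 to 70.5% (61.2 to 78.4%) on chromosome 26. None of these 27 chromosomes had an interval that left out the value of the whole list, at 30 or at 25 min. Among chromosomes with fewer peaks, chromosome 25 had a share of 40.0% (25.6 to 56.4%) at 25 min, from 35 peaks. Chromosome 16 had 100% (61.0 to 100%) at 30 min, from 6 peaks. With −log10 q of at least 5 in both lists the range between chromosomes was wider, at 28.3 percentage points at 30 min against 10.1 with all peaks. Over the 27 chromosomes share and span had a Spearman's rho of -0.165 at 30 min and -0.489 at 25 min. On chromosome Z the share was 57.8% (53.6 to 61.8%) at 30 min and 61.5% (57.3 to 65.6%) at 25 min. The median absolute displacement per chromosome was 40 to 64 bases. The median width difference was above 0 on 26 of the 27 chromosomes, with chromosome 26 at -8 bases.

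**Figure D4:**
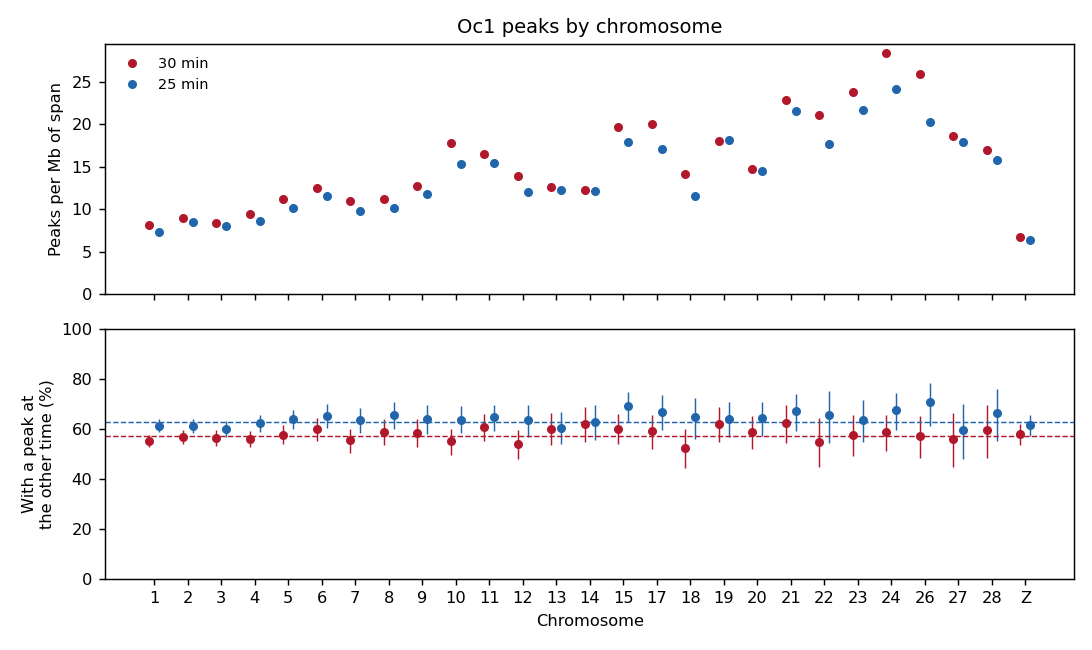
Oc1 peaks per Mb of span (upper panel) and share with a peak at the other time (lower panel, percent, with Wilson 95% intervals) on 27 chromosomes, at 30 min (red) and 25 min (blue). Dashed lines mark the shares of the whole lists, 57.2% and 62.8%. Density spans 6.76 to 28.4 peaks per Mb at 30 min, against 6.38 to 24.2 at 25 min, whereas every interval of the share includes its dashed line.

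The Otx2 lists played no part in forming the classes of Oc1 peaks, and the classes differed in their overlap with Otx2 peaks. An Otx2 peak at either time overlapped 59.8% (58.5 to 61.0%) of the Oc1 peaks of both times and 27.3% (26.0 to 28.6%) of those of 30 min only. It overlapped 59.6% (58.4 to 60.8%) of the Oc1 peaks of both times and 32.4% (30.9 to 33.9%) of those of 25 min only. Otx2 peaks at both of its times overlapped 37.4% of Oc1 peaks of both times and 12.7% of those of 30 min only, and 36.8% of both times and 14.2% of 25 min only.

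The classes differ in strength, and the strongest Oc1 peaks overlapped Otx2 most often. Among Oc1 peaks of both times with a fold of 10 or more, 78.9% (76.6 to 80.996%) at 30 min and 79.2% (76.8 to 81.4%) at 25 min overlapped an Otx2 peak. At a fold of 5 to 6 the overlap at 30 min was 47.7% (45.1 to 50.3%) for peaks of both times and 26.7% (24.7 to 28.8%) for that time only. At 25 min it was 51.0% (48.4 to 53.5%) for peaks of both times and 33.4% (31.0 to 35.9%) for that time only. In all 6 classes of fold at either time the peaks of both times had the higher share, with intervals apart in 6 classes at 30 min and 5 at 25 min. The same held in all 10 classes of summit reads, with intervals apart in 9 at 30 min and 7 at 25 min. Peaks of both times are mostly the same sites in either list, with 6049 matched pairs. The results at 30 and 25 min are thus not independent. Weighted to the fold classes of the single-time peaks, the difference was 23.9 percentage points at 30 min and 18.2 at 25 min, against 32.5 and 27.3 unweighted. Weighted by summit reads it was 18.8 points at 30 min and 15.9 at 25 min. Both weightings were chosen after seeing the data. Peaks of both times were also wider, with medians of 366.5 against 241 bases at 30 min and 340 against 229 at 25 min. A wider peak overlaps another more easily, and the classes were not compared at equal width. The part of width in the difference was not tested.

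**Figure D5:**
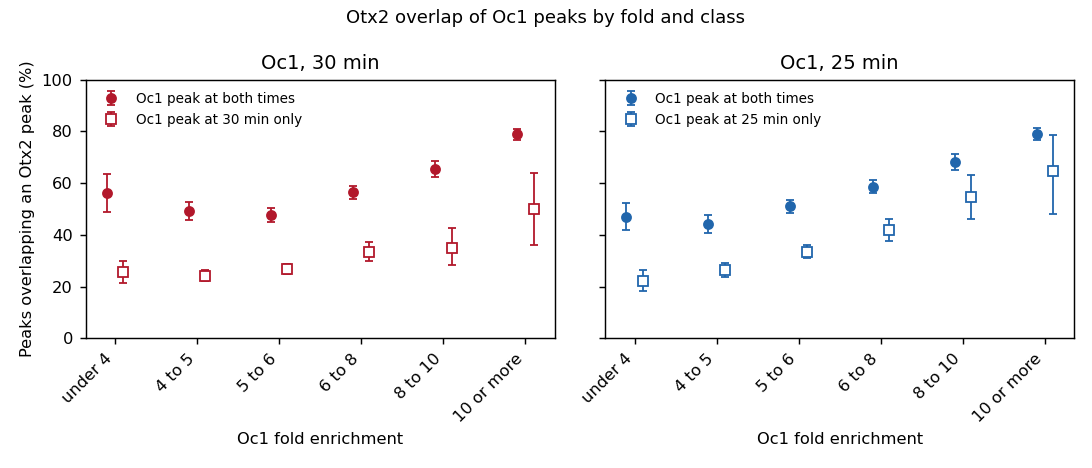
Share of Oc1 peaks that overlap an Otx2 peak of either time (vertical axis, percent) by Oc1 fold enrichment (horizontal axis), at 30 min on the left and 25 min on the right. Filled circles are Oc1 peaks of both times, open squares those of 1 time only, and error bars Wilson 95% intervals. Circles lie above squares in every class, for example at 47.7% and 26.7% for a fold of 5 to 6 at 30 min.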

How the data were processed

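Peak lists of 2 Oc1 and 2 Otx2 libraries were used as the authors deposited them, 1 per library, with 10 columns and no header. Bowtie2, SAMtools, deepTools, MACS2 and galGal5 are named in the submitters' processing notes, without settings. The control library and the threshold are not given in the sources used here. The deposited fold is a ratio, p and q stand as −log10 values, and the deposited score, in 100% of the Oc1 peaks, is −log10 q multiplied by 10 without its decimals. Chromosome M, with 1 peak of 16775 bases per Oc1 list, was left out.

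Summit reads were recovered as the whole number whose fold, with a pseudocount of 1, and Poisson p match the deposited values. This succeeded for 100% of Oc1 peaks within 0.002 of −log10 p. Peaks overlapping by at least 1 base were counted as shared and matched 1 to 1. Medians carry order-statistic and shares Wilson 95% intervals. Read ratios carry exact binomial intervals, and PCR copies may make reads dependent. Regions were named by fixed rules: the 5 strongest pairs, the 5 strongest peaks of each time only, the 5 largest displacements and fold ratios, and the 3 densest loci. Members, rules and lists were chosen with earlier results of these data known. Python 3.11.15, pandas 2.3.3 and scipy 1.17.1 were used, and the steps were tested on simulated data.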

Additional observations from a re-analysis of the deposited data

Results flagged for a closer look

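The 30 min list was the longer for Oc1 and the shorter for Otx2. The number at 30 min minus that at 25 min was 887 for Oc1 and -2451 for Otx2. Within matched pairs the width also differed in opposite directions, with a median difference of 25 bases for Oc1 and -96 bases for Otx2. The smallest width of a list differed in the same directions: it was 200 bases at 30 min and 194 at 25 min for Oc1, and 107 bases at 30 min and 157 at 25 min for Otx2. With 1 library per antibody and time, the difference between antibodies was not tested.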

How the results depend on the processing

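No paired analysis was possible because each antibody and time has 1 library and no test was made. Of 83 alternative values for 20 results, 35 stayed within the interval of the reported value. The share of peaks at both times moved to 47.5% at 30 min and 51.8% at 25 min under a 50% rule (mutual coverage of that much), to 42.9% and 46.8% with summits within 100 bases, and to 59.4% and 64.9% with peaks within 500 bases of each other. It was 56.1% at 30 min with −log10 q of at least 5, and 58.2% at 25 min among the 5000 strongest peaks. Among peaks with a background under 2 times the genome-wide one, an alternative chosen after seeing the data, it was 52.0% at 30 min and 56.3% at 25 min.

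The median fold of peaks of both times minus that of 1 time only was 2.18 at 30 min and 1.87 at 25 min with the 50% rule, and 1.72 at 25 min with −log10 q of at least 5. The same difference in −log10 q was 3.97 and 3.19 at 30 and 25 min with the 50% rule, and 3.23 at 25 min with the stricter q. In width it was 109 bases at 30 min and 101.5 at 25 min with the stricter q. The range of chromosome shares at 30 min widened to 28.3 percentage points with the stricter q, which leaves fewer peaks per chromosome. The median absolute displacement was 46 bases with the 50% rule or the stricter q and 36 bases in strong pairs. The median width difference was 19 bases with the 50% rule and 14 bases on the scale of the smallest width.

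Pairs with a fold at least 1.5 times higher at 30 min made up 12.2% with the stricter q and 8.52% in strong pairs, and those with a lower fold 10.2% and 5.53%. Strong pairs are chosen by fold at both times, which limits both shares. With summit reads in place of fold, chosen after seeing the data, these were 16.8% and 10.8%, and the median log2 ratio was 0.00. With a background under 2 times at both times, also chosen afterwards, they were 10.7% and 9.02%, and the median log2 ratio reversed to -0.0067. The cause was not tested. Median spacing was 69.7 kb at 30 min and 75.7 kb at 25 min with the stricter q, and 84.7 and 86.0 kb in the 5000 strongest peaks, since fewer peaks lie farther apart. The excess of Otx2 overlap in Oc1 peaks of both times was 25.9 points at 30 min and 23.0 at 25 min with the Otx2 list of the same time. It was 22.95 and 19.7 points with the 50% rule, 25.5 and 21.8 with the stricter q, 23.9 and 18.2 weighted by fold and 18.8 and 15.9 weighted by reads, the weightings having been added after seeing the data. With a fold of at least 6 in both lists the share of peaks at both times was 56.8% at 30 min and 62.2% at 25 min, within the interval of the reported values.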
